A study of Mus musculus with 54 samples.

Results

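The 200 steadiest expressed genes of the mouse suprachiasmatic nucleus (SCN) are described here, that is, the genes whose read level changed least between replicates and over the day. They were selected on the count table of the series, expressed as TMM-normalized CPM, the reads of a gene scaled to one common library total. Among genes with a mean of at least 20 CPM over the 18 biological replicates, the 200 with the lowest coefficient of variation (CV, the SD of the 18 values as a percentage of their mean) were taken. Genes whose symbols begin with any of 13 prefixes of large protein families (such as Rpl, Psm, Nduf, Eif and Kcn) had been left out. The table held 30031 genes, of which 7475 reached the level, 414 belonged to a family left out and 7061 were eligible, so the members were 2.83% of the eligible genes. All 18 values of every gene entered the choice, and their CVs, ranks and levels in this table are therefore descriptions without a test.

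The SCN is the hypothalamic clock of mammals. It had been cut by laser-capture microdissection from Nissl-stained brain sections of male C3H/HeH mice aged 10-12 weeks and kept under 12 hr of light and 12 hr of darkness. The labels set the 6 groups apart by zeitgeber time (ZT, hours after lights-on), namely ZT2, ZT6, ZT10, ZT14, ZT18 and ZT22, with 3 replicates (A, B and C) each. All 18 columns of the count table carry the mark WT, and no treatment or transgene is named for any group. Each replicate was RNA from the pooled tissue of 5 animals, so variation between single animals was not measured. About a nanogram of this RNA was amplified before sequencing. The 54 lane samples, 3 per replicate, were combined in the table into 18 columns.

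A gene that keeps its level in every sample is what quantitative PCR (qPCR) needs as a reference, since the measured genes are expressed relative to it. The classical reference genes encode actin, tubulin or metabolic enzymes, chosen because every cell uses them. In the SCN a large part of the transcriptome follows the clock, in which CLOCK and ARNTL drive *Per* and *Cry* genes whose products repress them, so a reference gene there has to be steady both between replicates and over the day.

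Depth ran from 15412981 reads (ZT18 C) to 35820945 reads (ZT14 A). The members held 3.21% of all reads and the eligible genes 85.6%. ZT18 C, ZT2 A and ZT6 C were the 3 shallowest libraries and also those in which the members scattered most, with SDs of 0.277, 0.275 and 0.312 in log2 level over the 200 genes against 0.166 to 0.238 elsewhere. Of the 200 members, 114 (57%) had their highest or lowest value in one of these 3 libraries, as did 68.4% of eligible genes, and when all 3 were left out (chosen after seeing the data) 111 of the 200 were still among the 200 steadiest. The part of depth in this was not tested. All 11 SCN neuron markers were expressed, their summed level ranging from 1970 to 5980 CPM, and markers of cells outside the SCN were present as well. Of 7 markers of neighbouring hypothalamic neurons, *Sst* averaged 104 CPM, *Trh* 22.3 CPM, *Pomc* 6.99 CPM and *Oxt* 3.19 CPM, while *Agrp*, *Pmch* and *Hcrt* lay at 0.315, 0.667 and 0.448 CPM. The summed level of 4 telencephalic markers ranged from 13.8 to 223 CPM, led by *Slc17a7* (29.5 CPM) and *Neurod6* (27.7 CPM). Summed oligodendrocyte markers ranged from 1350 to 5820 CPM and astrocyte markers from 1950 to 5960 CPM, and none of the 14 genes on these lists was a member. In such pooled tissue fewer cells of a type and less RNA per cell cannot be told apart.

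Of the 10 reference genes of the study's own qPCR, 6 were members, and 5 of these 6 have their primers printed here to show which part of the transcript each assay reads. The primer sequences come from the study's primer list and were located on GRCm38 with the GENCODE M21 annotation. Each runs 5′ to 3′ and all letters are lower case, as no base is singled out.
Ankrd40 forward: ggtggatgtgaactcgcaaa
Ankrd40 reverse: cctgtccatggttgcgttta
Smarce1 forward: cgcgggacaaagggaa
Smarce1 reverse: tgacattttggaagattaagttctca
Ywhaz forward: atgttcttggcccatgtgac
Ywhaz reverse: aaaccaacagcgacttggaa
Nkiras1 forward: ggttgctgtctgttgggaaa
Nkiras1 reverse: cagcgtttcacagtcttcca
Sar1a forward: agcacgtaccaacactcca
Sar1a reverse: catgcccaccgagatcaaaa

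The *Ankrd40* pair read 77 bases of coding sequence across exons 1 and 2 (plus strand, chr11:94328352-94328371 and chr11:94333922-94333941). The *Smarce1* pair read 104 bases from the untranslated part of exon 1 into exon 2 (minus strand, chr11:99230439-99230454 and chr11:99228498-99228523). The *Ywhaz* pair lay within a single exon, exon 7, in its untranslated part (minus strand, chr15:36771377-36771396 and chr15:36771322-36771341), and was the only one of these 5 pairs not to span an intron. The *Nkiras1* pair read 86 coding bases across exons 2 and 3 (plus strand, chr14:18276744-18276763 and chr14:18278307-18278326). The *Sar1a* pair read 84 coding bases across exons 3 and 4 (plus strand, chr10:61685162-61685180 and chr10:61685594-61685613). None of the 5 pairs matched a transcript of another gene in full.

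The steadiest gene of all was *Zfr*, which encodes a zinc finger RNA-binding protein and lies on the plus strand of chromosome 15 (chr15:12117831-12185683, 20 exons). Its level was 419.6, 515.2 and 444.1 CPM at ZT2, then 461.8, 450.8 and 422.3 CPM at ZT6 and 442.5, 451.1 and 415.5 CPM at ZT10. In the dark phase it was 494.9, 435.1 and 390.4 CPM at ZT14, then 475.6, 473.0 and 360.3 CPM at ZT18 and 420.7, 355.5 and 462.3 CPM at ZT22. Every timepoint overlapped every other, and the highest timepoint mean exceeded the lowest by 1.11-fold. Its CV was 9.57%, where counting error alone would have given 0.976% at a mean of 11490 reads. *Ankrd40*, an ankyrin repeat gene (chr11:94328001-94341841, plus strand), came next with a CV of 9.74% at a mean of 74.2 CPM, its 18 values running from 64.1 CPM in ZT22 B to 88.1 CPM in ZT6 C.

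The 25 steadiest members had CVs of 9.57% to 13.5% and are described here by their known roles. Transcription and chromatin were represented by *Polr2c*, a subunit of RNA polymerase II (CV 11%, mean 81.8 CPM), and by *Smarce1* (11.4%) and *Smarcc1* (13.4%), both subunits of the BAF chromatin remodelling complex. Membrane traffic and autophagy were represented by *Gabarapl1*, an ATG8 family protein of the autophagosome (10.5%, mean 446.5 CPM), *Wipi2*, which recruits the autophagy machinery (13.2%), and *Arcn1*, the delta subunit of the COPI coat (13.4%). These 6 genes spanned levels from 50.1 CPM for *Smarcc1* to 446.5 CPM for *Gabarapl1*.

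Protein folding and turnover were represented by *Hspa9*, the mitochondrial HSP70 (13.5%), *Dnajb4*, a J protein (12.3%), and *Npepps*, the puromycin-sensitive aminopeptidase (11.1%). *Cdc123*, an assembly factor of the initiation factor eIF2 (10.5%), *Ciao1*, which helps load iron-sulfur clusters onto cytosolic proteins (11.5%), *Sms*, the spermine synthase (13%), and *Stard7*, a lipid transfer protein of mitochondria (11.6%), serve basic metabolism. Genes with a known part in neurons were among them as well, namely *Camk2g*, a subunit of calcium/calmodulin-dependent kinase II (11.3%), *Stau2*, which carries RNA into dendrites (12.4%), and *Nrsn1*, a neuronal vesicle membrane protein (12.4%). The others were *Gm10131* (10.1%), *Cyhr1* (11.5%), *Tpgs2* of the tubulin polyglutamylase complex (11.7%), *Mea1* (12.1%), the septin *Sept8* (12.7%), *Ywhaz* (13.4%) and *Epm2aip1* (13.4%).

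**Figure D1:**
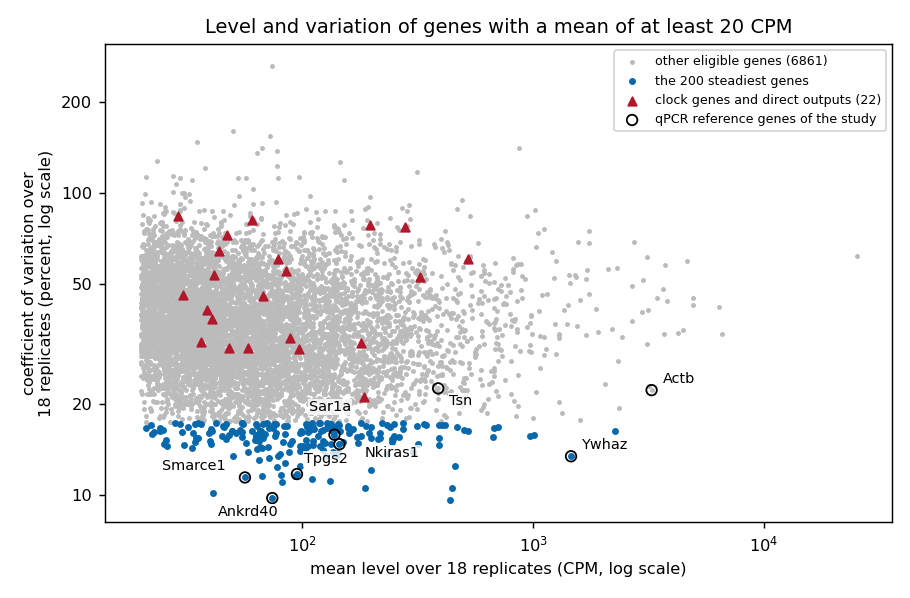
Mean level over 18 replicates (CPM, log axis) against the coefficient of variation (percent, log axis) for the 7061 eligible genes. Blue points are the 200 members, red triangles the 22 eligible clock genes and direct outputs, and black circles the eligible qPCR reference genes of the study. The members fill the lower edge up to 17.3% between 21 and 2260 CPM, and no red triangle lies among them.

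The limit of 200 did not fall in a gap. The last genes inside were *Msl1* (17.31%), *Casd1* (17.31%) and *Kif5b* (17.33%), and the first outside were *9930111J21Rik1* (17.34%), *Mllt3* (17.35%) and *Gpr179* (17.37%). The median CV was 16% for the members and 35.6% for all eligible genes, whose CVs reached 264%. The highest of a member's 18 values was between 1.36 and 2.76 times its lowest, with a median of 1.77, and stayed under 2 times for 176 of the 200. The same ratio had a median of 3.68 over the 7055 eligible genes with no value of 0. Counting error, which covers the sampling of reads only, would by itself have given the members a median CV of 2.05%. Amplified reads are not independent molecules, and the part of sampled molecules in the variation was not tested.

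The members had mean levels of 21 to 2260 CPM, while eligible genes reached 25200 CPM. They made up 1.16% of the 3265 eligible genes with a mean of 20 to 50 CPM and 5.45% of the 1119 genes with 100 to 200 CPM. At 500 CPM and over, 9 of 223 genes were members. The 5 with the highest levels were *Gm38393* (2257 CPM, discussed with the reference genes below), *Ywhaz* (1461 CPM), *Serinc1*, a serine incorporator of membranes (1009 CPM), *Canx*, the calnexin chaperone of the endoplasmic reticulum (968.3 CPM), and *Gad1* (702.9 CPM). The 5 with the lowest were *Asb7* (21 CPM), *Fbxl20* (22.1 CPM), *Ifngr2* (22.4 CPM), *Igdcc4* (22.9 CPM) and *Inpp5a* (24.1 CPM). No member had fewer than 278 reads in any library.

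*Gad1* encodes the enzyme that makes GABA, the transmitter of nearly all SCN neurons. It was the only member among the 8 general neuron markers, with 592.9, 804.5 and 920.1 CPM at ZT2 and 758.6, 573.8 and 536.6 CPM at ZT14, the timepoints of its highest and lowest means. These groups overlapped, and its CV of 16.8% compared with 33.5% for the median of the 8 markers. None of the 11 SCN neuron markers was a member, their CVs running from 25.2% for *Lhx1* to 127% for *Avp*.

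**Figure D2:**
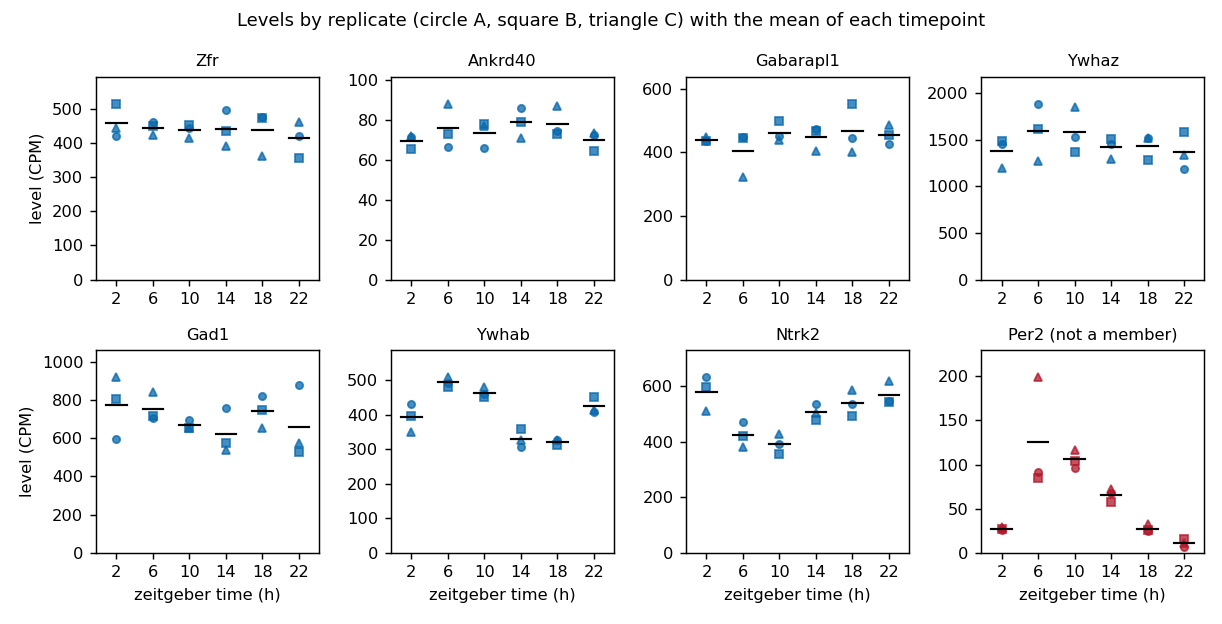
Level in CPM (axes start at 0) against zeitgeber time in hours for 7 members and, in red, the clock gene *Per2*. Each symbol is a replicate (circle A, square B, triangle C) and each bar the mean of 3. All 6 timepoints of *Zfr* overlap one another, whereas *Ywhab* and *Ntrk2* do not overlap between ZT2 and ZT6 or between ZT10 and ZT14, and *Per2* runs from 7.04 to 199.5 CPM.

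Sorted by function, the members were spread thinly. The gene lists were drawn up by family name, and beside each count stands the share of all eligible genes that were members, 2.83%. Among 40 chaperonin subunits and J proteins 4 were members (*Dnajb4*, *Dnajc5*, *Dnajc27* and *Dnaja1*), and among 68 chromatin remodelling and histone-modifying enzymes 4 (*Smarce1*, *Smarcc1*, *Setd3* and *Arid1a*). Among 26 autophagy genes 3 were members, *Gabarapl1*, *Wipi2* and *Atg12*, while the median CV of that list was 32.6%. Of 56 cullins and SCF ubiquitin ligase parts 3 were members (*Fbxo6*, *Cul2* and *Fbxl20*), and of 63 RING and TRIM ubiquitin ligases 3 (*Trim35*, *Rnf216* and *Trim37*).

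In each of these lists most genes varied about as much as eligible genes in general, with list medians of 30.8% to 36.1%. Lists with 2 members were the 14-3-3 proteins (*Ywhaz* and *Ywhab* of 6), the coat proteins and their GTPases (*Arcn1* and *Sar1a* of 28) and the presynaptic vesicle proteins (*Gad1* and the synaptic vesicle protein *Sv2a* of 30). Lists with 1 member were RNA polymerase II and its general factors (*Polr2c* of 58), vesicle adaptors (*Ap3d1* of 59), SNAREs (*Vamp4* of 34), ubiquitin-specific proteases (*Usp22* of 35), protein phosphatases (*Ppp2r2b* of 41), nuclear transport (*Tnpo1* of 37) and MAP kinases and their kinases (*Map3k5* of 23). None of 40 Rab GTPases, 27 ubiquitin-conjugating enzymes, 18 V-ATPase subunits, 32 RNA helicases, 19 cytosolic tRNA synthetases or 43 mitochondrial import and carrier genes was a member. None of the 22 clock genes and direct outputs or the 9 immediate early genes was one either. The steadiest clock-controlled gene was *Tef*, a PAR bZIP factor (CV 21.1%, rank 592), and the most variable was *Per1* (84.0%).

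The families left out held 414 of the 7475 genes that reached the level. With nothing dropped, 6 of the 200 would have been from them. The steadiest were *Psmd12*, a proteasome lid subunit (12.4%, rank 17), *Rps29* (13.6%, rank 27), *Mrpl27* (14.6%, rank 49), *Mrps11* (15.7%, rank 91) and *Eif2b5* (15.9%, rank 101). The median CVs of the families ran from 29.8% for Psm to 42.5% for Kcn, on both sides of the 35.6% of all eligible genes.

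The reference genes of the study had been chosen by its authors as stable in these same libraries, apart from *Actb* and *Gapdh*, so their place among the members is not independent evidence that they are steady. Their CV ranks among the 7061 eligible genes were 2 for *Ankrd40*, 9 for *Smarce1*, 13 for *Tpgs2*, 22 for *Ywhaz*, 54 for *Nkiras1* and 92 for *Sar1a*. *Ywhaz*, the zeta 14-3-3 adaptor protein (chr15:36770770-36796929, minus strand), was the most abundant of the 6. It had 1458, 1487 and 1197 CPM at ZT2 and 1887, 1618 and 1270 CPM at ZT6, and its values at ZT22 were 1181, 1581 and 1331 CPM. The spread within ZT6 alone was thus nearly that of all 18 libraries.

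*Smarce1* had a CV of 11.4% and was not called by the edgeR quasi-likelihood F-test over time described below (adjusted p 0.111). It had 47.4, 48.8 and 51.5 CPM at ZT2 and 52.8, 47.7 and 49.7 CPM at ZT22, but 60.9, 60.4 and 58.0 CPM at ZT6 and 62.2, 64.3 and 63.1 CPM at ZT10. The groups around dawn and those of the later light phase did not overlap. Between all the clusters of timepoints described below, ZT14 and ZT18 included, lay 64.1% of its variance. *Nkiras1*, an inhibitor of NF-kappa-B signalling, had its highest value, 182.8 CPM, at ZT22 and its lowest, 108.8 CPM, in ZT6 C. *Sar1a*, the GTPase of the COPII coat, ran from 106.6 CPM in ZT18 C to 182.0 CPM in ZT18 B, its full range within a single timepoint.

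The other reference genes varied more. *Tsn*, which encodes translin, ranked 808 (CV 22.5%), with 313.2, 276.8 and 271.2 CPM at ZT14 against 408.3, 387.6 and 400.5 CPM at ZT22, groups that did not overlap. *Actb* ranked 764 (CV 22.2%), and its 18 values ran from 1610 CPM in ZT10 B through 1871 CPM in ZT22 B to 4356 CPM in ZT18 C. Its low values fell in single replicates, not in whole timepoints. *Gapdh* had a mean of only 15.6 CPM in this table and so was not eligible. Its CV was 29.8%, with values from 5.43 CPM in ZT18 C to 23.6 CPM at ZT22.

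*Snrpn*, which encodes a splicing protein expressed from the paternal chromosome, was the remaining reference gene and had no row under its own identifier. The primer pair of the study for *Snrpn* matched transcripts of 2 annotated genes in full, *Snrpn* and *Gm38393*, which overlap on the minus strand of chromosome 7 (chr7:59974149-60005064). *Gm38393* was a member at rank 121 and had the highest level of all 200. Its value was 2522 and 2142 CPM in ZT6 A and ZT6 B but 968.9 CPM in ZT6 C, while the other 15 libraries lay between 2025 and 2671 CPM. Its CV over all 18 libraries was 16.3%.

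Of the 17 conventional reference genes that were eligible, *Ywhaz* was the only member. The steadiest after it were *Polr2a* (20.2%, rank 472), *Actb* and *Hprt* (23.1%, rank 901). *Sdha*, a subunit of succinate dehydrogenase (54.5%), had 1436, 1547 and 1291 CPM at ZT2 and 1280, 1364 and 1431 CPM at ZT22 but 271.1 to 412.6 CPM at ZT6 and ZT10. *Eef1a1* (44.9%), *Tubb5* (47.8%) and *Pgk1* (47%) also lay above the median of eligible genes, and 13 of the 17 were called by the time test described below, which called 71.9% of the eligible genes tested.

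**Figure D3:**
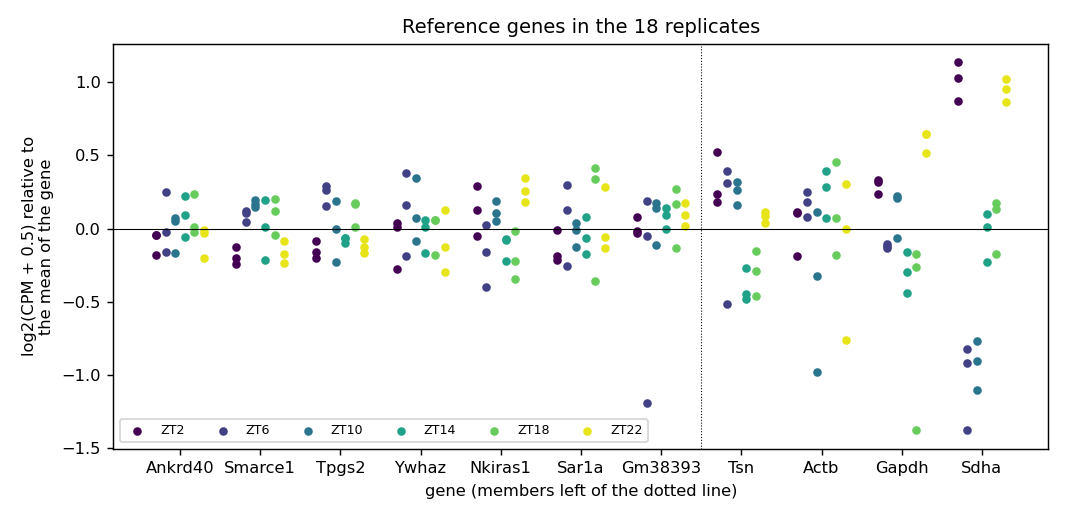
Level of each reference gene in the 18 replicates as log2(CPM + 0.5) relative to the mean of that gene, with colours for the 6 timepoints. The genes left of the dotted line are members, *Gm38393* standing for the *Snrpn* locus. The single low point of *Gm38393* is ZT6 C, and *Sdha* on the right is higher at ZT2 and ZT22 than at the other timepoints in every replicate.

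To see whether genes chosen in some libraries were steady in others, the rule was applied to 12 columns and the CV was read in the 6 columns of the letter left out. The replicates were from separate pools, but the same timepoints were present on both sides. The genes chosen in this way were not the same 200, and 142, 138 and 99 of them were members with A, B and C left out. With A left out the chosen 200 had a median CV of 18.2% in the A libraries, where eligible genes had 34.4%. With B left out the values were 18.5% and 35.3%, and with C left out 23.2% and 38.2%. The chosen genes varied more in the libraries not used than in those used, where their medians were 13.5% to 15.3%.

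Of the genes chosen, 96.0%, 97.5% and 91.0% lay below the median of the eligible genes in the libraries left out, and 49.5%, 56.5% and 37.0% among the steadiest 10% of them. Between 33 and 44 of the 200 were also among the 200 steadiest of the 6 libraries left out. Of the 3 libraries that stand apart as described above, ZT6 C and ZT18 C are among the C libraries and ZT2 A among the A libraries, and their part in these values was not tested. Of the 200 members, 59 were chosen in all 3 rounds. The rounds share libraries with each other and with the choice of the members, so this overlap is no independent support. These 59 held the 26 members with the lowest CVs, among them *Ednrb*, the endothelin receptor B at rank 26 (13.6%), and reached down to *Ifngr2* at rank 98.

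**Figure D4:**
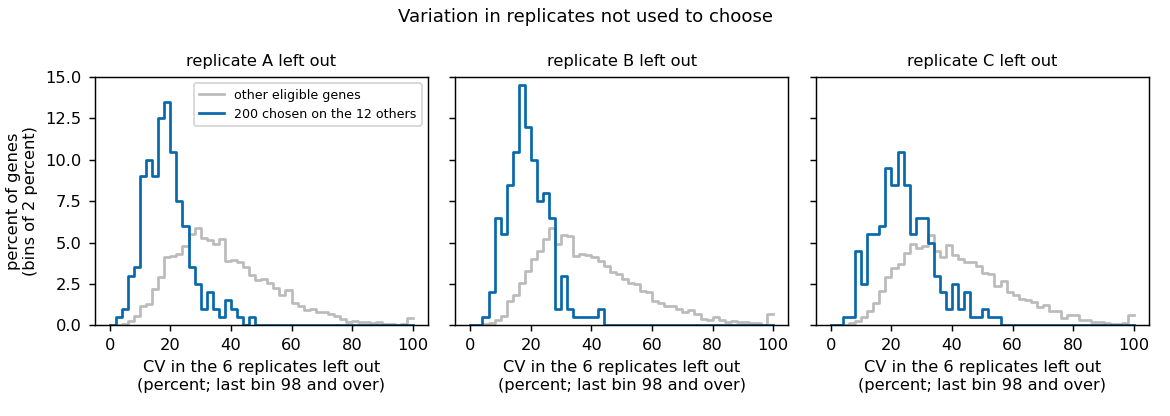
Distribution of the CV (percent, bins of 2) in the 6 libraries of the letter left out, for the 200 genes chosen on the other 12 libraries (blue) and for the other eligible genes (grey), as a percentage of each set. The blue curves lie to the left of the grey ones in all 3 panels, with medians of 18.2%, 18.5% and 23.2%, and the panel for C reaches furthest to the right.

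Neighbouring timepoints of this series form 3 clusters, which are ZT2 and ZT22, ZT6 and ZT10, and ZT14 and ZT18. The study names sequencing batch beside timepoint in its own plot of the libraries, and from its clock gene profiles it takes any effect of batch to be minimal. As each timepoint sits whole in a single cluster, time and such a batch cannot be told apart between clusters. In the members a median of 52.6% of the variance lay within timepoints, 16.7% between the timepoints of a cluster and 26.6% between clusters. The same medians were 25.4%, 9.04% and 62.4% over all eligible genes. By degrees of freedom alone the shares would be 70.6%, 17.6% and 11.8%.

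More than 50% of the variance lay between clusters for 28 members (14.0%), and for 64.9% of eligible genes. The clearest case was *Ywhab*, the beta 14-3-3 protein (chr2:163994960-164018588, plus strand), with 87.4% between clusters. It had 493.3, 481.2 and 510.2 CPM at ZT6 and 459.1, 452.3 and 481.6 CPM at ZT10. At ZT14 it had 307.1, 358.6 and 326.9 CPM and at ZT18 327.5, 312.9 and 327.2 CPM. All replicates of ZT6 and ZT10 lay above all those of ZT14 and ZT18, but ZT2 C, at 349.2 CPM, lay below ZT14 B. The timepoint means spanned 1.53-fold. Within timepoints its CV was 5.97%, the lowest of the 200 members. *Zfr* had 0.198% of its variance between clusters and 88.3% within timepoints.

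In the edgeR quasi-likelihood F-test over the 6 timepoints, 21 of the 200 members were called at an adjusted p under 0.05, beside 44.0% of the 18941 genes tested. The rule used these same values, so nothing is read from this count. At an unadjusted p under 0.05 there were 36 members, a count with no share of all genes beside it. Tests within clusters alone, added after seeing the data, called 0 members by edgeR at an adjusted p under 0.05. The share of the genes tested was 0.116%. At an unadjusted p under 0.05 these tests held 15 members, again with no such share. The test between clusters called 35 members, beside 54%. The clusters group these same libraries, so nothing is read from how the calls divided.

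The 5 members with the smallest p over time were *Ywhab*, *Tmem9*, *Ntm*, *Rbm8a* and *Gdpd1*. *Tmem9*, a transmembrane protein gene, rose from 93.8 CPM ± 16.7 (SD, n = 3) at ZT2 to 144.3 CPM ± 6.72 at ZT18. *Ntm*, a neuronal adhesion molecule, was highest at ZT2 with 409.5 CPM ± 15.2 (SD, n = 3) and lowest at ZT6 with 281.0 CPM ± 8.0. *Gdpd1*, a glycerophosphodiesterase, had 106.4 CPM ± 3.92 at ZT6 and 170.0 CPM ± 26.2 at ZT14. *Rbm8a*, of the exon junction complex, peaked at ZT10 with 133.3 CPM ± 10.5, against 96.0 CPM ± 7.12 at ZT22. *Ntrk2*, the receptor of brain-derived neurotrophic factor and also among the 21, fell from 581.2 CPM ± 64.4 at ZT2 to 391.1 CPM ± 36.0 at ZT10 and stood at 506.8 CPM ± 29.5 at ZT14. The steadiest genes thus still included some with up to 1.63-fold between timepoint means, the value of *Atrx*, a chromatin remodeller.

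**Figure D5:**
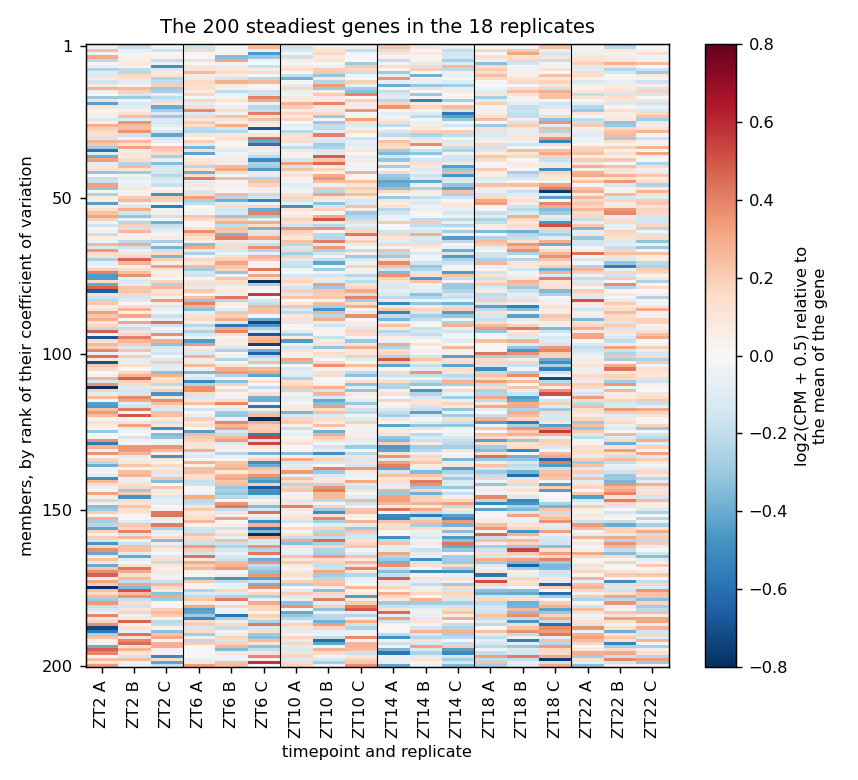
The 200 members (rows, by rank of CV) in the 18 replicates (columns), coloured by log2(CPM + 0.5) relative to the mean of the gene. The scale ends at 0.8 in either direction, and values beyond it take the end colour. Scatter is strongest in ZT2 A, ZT6 C and ZT18 C, and ZT14 has more blue than the other timepoints.

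The choice of genes with low variance also bears on how they vary together, and the following values are descriptions with nothing read from them. The first principal component took 17.4% of their variance in log2 level and 53.4% of that of the eligible genes, and in both it separated mainly the clusters (84.6% and 98% of the component). In the members it set ZT14 and ZT18 against ZT2 and ZT22, while over all eligible genes it set ZT6 and ZT10 against ZT2 and ZT22. Over 19900 pairs of members the median absolute correlation across the 18 libraries was 0.224, and over all pairs of eligible genes 0.388. These pairs share libraries and their clusters.

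The summed level of the members was 30360 CPM ± 939 (SD, n = 3) at ZT14 and 33020 CPM ± 274 at ZT22, the lowest and highest timepoints. It was 8.06% lower at ZT14 than at ZT22, and the summed level of all eligible genes was 9.91% lower. Of the 200 members 60 (30%) were lowest at ZT14, the timepoint at which 18.0% of eligible genes were. *Canx*, *Gad1*, *Polr2c* and *Arcn1* were among them, and *Canx* had a mean of 800.5 CPM ± 31.1 (n = 3) at ZT14 and 1046 CPM ± 174 at ZT2. At ZT22 11% of members and 9.12% of eligible genes were lowest, and at ZT10 9.0% and 17.1%. The summed oligodendrocyte markers were 5060 CPM at ZT14 and 2740 CPM at ZT22, and the summed SCN neuron markers 2390 and 3150 CPM. Their part in the level of the members was not tested.

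In gene structure, which the rule did not use, the members and the eligible genes compared as follows. Their gene bodies had a median length of 30.9 kb against 28 kb, their summed exons 5460 bases against 4900 bases, and the transcript with most exons 9 exons against 10. A single exon was annotated for 7.0% of members and 3.08% of eligible genes. The members lay on 20 chromosomes, 7 of them on the X chromosome. Upstream sequence of 250 bases was found in RefSeq for 141 members and 5512 eligible genes (build GRCm38.p6). Its median GC content was 62.0% in the members and 60.8% in the eligible genes, and the ratio of observed to expected CpG 0.795 and 0.761.

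Letters of known elements were searched on both strands of that sequence. TATAAA, the TATA box, stood in 4.26% of the member promoters, 5.55% of the eligible ones and 13% of 27025 promoters in all. CCGCCC, a core of the GC box, stood in 64.5%, 61.4% and 32.9%. CACGTG, the E-box bound by CLOCK and ARNTL, stood in 12.8%, 9.23% and 6.05%, that is, in 18 of the 141 members. The shares for CCAAT, the CCAAT box, were 37.6%, 36.5% and 34.5%. For TGACGTCA, the cAMP response element, they were 2.13%, 3.12% and 1.62%, and for TTATGTAA, a D-box, 1.42%, 0.454% and 0.862%. Such a match is a string of letters and not a shown binding site.

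Processed pseudogenes, intronless copies of messenger RNAs, formed 11 of the 200 members (5.5%) and 1.68% of the annotated eligible genes. Each of the 11 aligned over its full or nearly full length to a protein-coding gene, with 95.4% to 99.7% identity. Reads of such a copy and of its parent gene can be exchanged in mapping, and their counts are uncertain. *Gm12231* (103 CPM, CV 14.2%) was 98.7% identical to *Atp5f1* of the ATP synthase, which had 729 CPM and a CV of 18.0%. *Mpc1-ps* (173 CPM, 15.5%) had more reads than its parent *Mpc1*, a mitochondrial pyruvate carrier subunit (85.8 CPM, 26.8%). *Gm6304* (45.0 CPM, 15.6%) and *Mrpl27* (54.9 CPM, 14.6%), which is the third of the family genes listed above, were 98.9% identical, and both were below the limit of the 200.

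The member at rank 3, *Gm10131*, is annotated as protein-coding but has the same form. Its 736-base transcript on chromosome 8 (chr8:34111002-34111737, minus strand) differed from that of *Erh*, a small nuclear protein gene on chromosome 12, by 1 base in 735 aligned. *Gm10131* had 41.2 CPM with a CV of 10.1% and *Erh* 105 CPM with a CV of 27.2%. *Mpc1-ps* and *Mpc1* likewise differed by 1 base in 330. The stretches around these bases are printed because a read that does not cover the base in capitals fits both genes equally.
Gm10131 (chr8:34111312-34111341, minus strand): tacagcgtgctgtagCgaaccttttgtatg
Erh (chr12:80634349-80634378, minus strand): tacagcgtgctgtagTgaaccttttgtatg
Mpc1-ps (chr12:110858840-110858869, minus strand): cggcggactatgtccAgagcaaggacttcc
Mpc1 (chr17:8283916-8283945, plus strand): cggcggactatgtccGgagcaaggacttcc

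The base lies outside the coding sequence of *Erh* and within that of *Mpc1*. Over the 18 libraries the log2 levels of *Gm10131* and *Erh* had a Pearson correlation of 0.288 and those of *Mpc1-ps* and *Mpc1* one of 0.62, given as descriptions.

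The authors' normalized table gave another view of the same libraries. All 200 members were in it, with a median CV of 16.5%, and 185 had a CV under 20%. Its reads, recovered from the steps of its values, were mostly those of the count table except at ZT6 and ZT10, where the members had a median of 0.10 fewer log2 units. There 7 members had a CV over 25%, and those named here were chosen after their values were seen. The widest was *Arhgap4*, which had 151 to 188 CPM as timepoint means in the count table and 0.344 to 6.41 CPM in the other, and whose body overlaps *L1cam* and *Naa10* on the same strand. *Sys1* had 95.8 to 122 CPM against 14.4 to 35.3 CPM, and *Gm6304* had 8.57 CPM at ZT10 and 44.9 CPM at ZT22 in the normalized table. For these 7 genes the level and the steadiness depended on which deposited table was read.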

How the data were processed

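RNA-seq of laser-captured SCN was analysed from 2 tables. Per the labels and the study's methods, the authors mapped reads with GSNAP to mm10 (GRCm38), counted reads per gene with HTSeq 0.5.4p1 and combined the lanes. The deposited counts are raw. The deposited normalized table holds a signal, counts divided by DESeq2 size factors, in which 100% of the values above 0 were whole multiples of a step per column (within 0.01 reads), so that reads could be recovered (the time test on them, added after seeing the data, called 9367 genes).

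Counts were scaled to CPM with edgeR 4.0.16 (TMM). The members and gene lists were chosen with earlier results of these data known. Named genes were the 25 members of lowest CV, the 5 of highest and of lowest level, 3 on either side of the limit, the reference genes, the 5 called members of smallest p, up to 4 members per list and the 5 steadiest genes of the families left out. The time test was edgeR's quasi-likelihood F-test (1 read in more than 6 replicates, 18941 genes, Benjamini-Hochberg adjustment), checked on simulated counts. Symbols matched 97.2% of identifiers. Copies were aligned with BLASTN 2.17.0+. Alternatives covered normalization, filters, the measure of variation, DESeq2 1.42.0 and libraries left out. All 18 columns of both tables were mapped to samples and 0 were unused. *Ednrb*, *Ntrk2* and *Atrx* were named after their values were seen. Labels do not say that replicates came from separate days, so spreads may be partly technical. Depth was 15412981 to 35820945 reads per library. Counting error covers sampling of reads only, since amplified reads are not independent molecules. Results on 2 further genes are not reported here.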

Additional observations from a re-analysis of the deposited data

How the results depend on the processing

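Of the 200 members, 192 stayed with DESeq2 size factors and 140 each with upper-quartile scaling or none, and 85 were chosen under all 3. Among other measures of variation, the SD of the log2 ratio to every other gene kept 158, and fewer were kept by the rest, 76 with the median absolute deviation, 104 with the CV of the 6 timepoint means and 45 with the SD within timepoints, and the authors' normalized table kept 124. Without ZT6, ZT14 or ZT18 the numbers were 125, 127 and 123. Alternatives chosen after seeing the data kept 62 (without ZT6 and ZT10) and 111 (leaving out the 3 shallowest libraries). The cause was not tested.

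Members called over time, 21 in the analysis reported, numbered 57 by the likelihood ratio test of DESeq2, 35 with upper-quartile normalization and 12 with no filter. With alternatives chosen after seeing the data they numbered 38 (45.0%) from recovered reads and 11 (30.1%) without ZT6 and ZT10. Leaving out the 3 shallowest libraries gave 41 (51.2%), and the test within clusters of timepoints 0 (0.116%). All genes called, 8343, became 5461 without ZT6 and ZT10 and 22 within clusters. The cause was not tested.

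Leaving out each replicate in turn kept 143 (without ZT6 C) to 189 members, with a median CV of 15.5% to 16.2%, and called 14 (without ZT14 A) to 28 members and 7456 to 9129 genes in all. With a replicate block 19 members and 7847 genes were called. Same-letter libraries had residual correlations of -0.129 to 0.07 (45 pairs) and different-letter libraries -0.146 to 0.151 (90 pairs). The letters were not used as a pairing in the main test, and whether they share handling was not tested. In simulated counts of the time test, 95% of genes changed 2-fold and 20% of those changed 1.5-fold were called, which limits what small daily changes this design can show.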
